A study of Drosophila melanogaster with 19 samples.

Results

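Zucchini (Zuc) knockdown (KD) was compared with control KD in Armitage (Armi) CLIPPARE, a library of the 5′ ends of RNA crosslinked to Armi. The cells were ovarian somatic cells (OSC), a Drosophila line derived from the somatic cells of the ovary. Of the 19 libraries of the series, 4 were used: 2 after Zuc RNAi and 2 after EGFP RNAi, which is the control KD. In all 4 the cells were crosslinked with UV and RNA was recovered with an anti-Armi antibody, and the control libraries carry an RNAi too. The labels give no genotype beyond the RNAi, no time after transfection, and no word on whether replicates came from separate cultures, so p-values measure the spread between these libraries. Members were transcripts that averaged 5 RPM (reads per M of reads) or more over the 4 libraries, which left 4006 of the 13929 listed.

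PIWI-interacting RNAs (piRNAs) are small RNAs that guide Piwi to silence transposons. In follicle cells they are cut from long single-stranded precursors, among them the mRNAs of some protein-coding genes. Armi is an RNA helicase that binds these precursors, Yb (the product of fs(1)Yb) gathers the processing factors in perinuclear bodies, and Zuc is an endonuclease on the outer mitochondrial membrane that makes the 5′ ends of the piRNAs. In CLIPPARE an adapter is ligated to the RNA ends on the beads before RNase T1 is added, so that ends already present in the cell are the ones read. The question was which Armi-bound ends depend on Zuc.

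The tables held 0.938 and 0.947 M reads in Zuc KD and 1.00 and 1.06 M reads in control KD, out of implied totals of 5.83 and 5.71 M in Zuc KD and 7.82 and 5.38 M in control KD. That is 16.1 and 16.6% of the total in Zuc KD, against 12.8 and 19.7% in control KD, so the control libraries differ from each other more than the Zuc KD libraries do. After each library was centred on the median of its tested transcripts, the difference between replicates had an SD of 0.30 on the log2 scale in Zuc KD and 0.45 in control KD. Across transcripts Pearson's r was 0.976 between the Zuc KD libraries and 0.956 between the control KD libraries, and it lay between 0.881 and 0.898 for pairs across the groups. All changes below are log2(RPM + 1) in Zuc KD minus control KD after centring, so they are relative to the median transcript. The RPM of each library are given as deposited. The libraries come from whole cultures and no unbound RNA of these cells was analysed here, so fewer cells with a transcript, less of it per cell and fewer of its ends bound to Armi cannot be told apart.

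The knockdown itself could not be read from these libraries. The zuc mRNA had 0.343 and 2.10 RPM in Zuc KD, against 1.15 and 3.72 RPM in control KD, or 2 and 12 reads against 9 and 20 reads. The RPM of the groups overlapped, and the transcript was below the limit for testing. Of 8 markers of ovarian somatic cells, 7 had a mean of at least 5 RPM, and hth did not. The 8 summed to 2149 and 2358 RPM in Zuc KD, against 2216 and 4584 RPM in control KD. Most of each sum was tj, with 1649 and 1833 RPM in Zuc KD, against 1935 and 4143 RPM in control KD. In RPM eya, Fas3, zfh1 and bab1 were higher in both Zuc KD libraries, fs(1)Yb was lower and piwi overlapped. Of 8 germline markers 7 were in the table and none reached 5 RPM, with sums of 5.83 and 5.78 RPM in Zuc KD, against 9.08 and 10.6 RPM in control KD, and otu at 0. The result differs with the list: of 28 germline marker genes in a longer list given below, 11 reached 5 RPM. Among those 11 were tud and BicD, with means of 145 and 109 RPM. Of 8 hemocyte (blood cell) markers 6 were in the table and 3 reached 5 RPM, with sums of 56.1 and 48.2 RPM in Zuc KD, against 52.6 and 77.2 RPM in control KD, and He and eater at 0. The part of these sums in the changes was not tested.

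Zuc KD changed the makeup of the Armi-bound ends. Of the 4006 transcripts 23.7% passed the test, limma with a Benjamini-Hochberg adjusted p under 0.05: 379 (9.46%) were higher and 570 (14.2%) were lower in Zuc KD. The centred values of the groups did not overlap for 2563 transcripts (64.0%). The split depends on the scale: without centring, 471 were higher and 111 were lower, because the median transcript was then 0.33 higher in Zuc KD, and after quantile normalization 476 were higher and 458 were lower. Leaving out Zuc KD replicate 1 or 2 left 162 or 182 calls in all, and leaving out control KD replicate 1 gave 1495. Of 146 transcripts named here by a rule, 38 lost their call without centring. More of them lost it when either Zuc KD replicate was left out, a fit with 1 Zuc KD library. The 146 include transcripts that were not called to begin with, such as armi and LanA. The share lost among the called ones was therefore larger than these counts make it look.

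The deposited tables sort genes with a symbol into 4 classes of piRNA level, named High, Middle, Low and Zero, and most transcripts of the High class fell in Zuc KD. Of 238 High transcripts tested, 138 fell and 6 rose, with a median change of -0.80, and 198 lay below 0. After quantile normalization 102 fell and 29 rose, and without centring 40 fell and 2 rose. Of 737 Middle transcripts 191 fell and 68 rose, with a median of -0.26. Without centring 39 fell and 57 rose, with a median of 0.077. Of 2487 Low transcripts 169 fell and 254 rose, with a median of 0.07, and without centring 19 fell and 343 rose. Of 5545 Zero transcripts listed only 30 were tested, with a median level of 6.43 RPM. Of these none fell and 6 rose, with a median of 0.34, and some passed the limit of 5 RPM only through Zuc KD. The median over all transcripts was -0.01. The 514 transcripts without a symbol, which have no class, had 45 higher and 72 lower calls and a median of -0.01. High falls numbered 30 when Zuc KD replicate 1 was left out and 34 with replicate 2 left out.

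**Figure D1:**
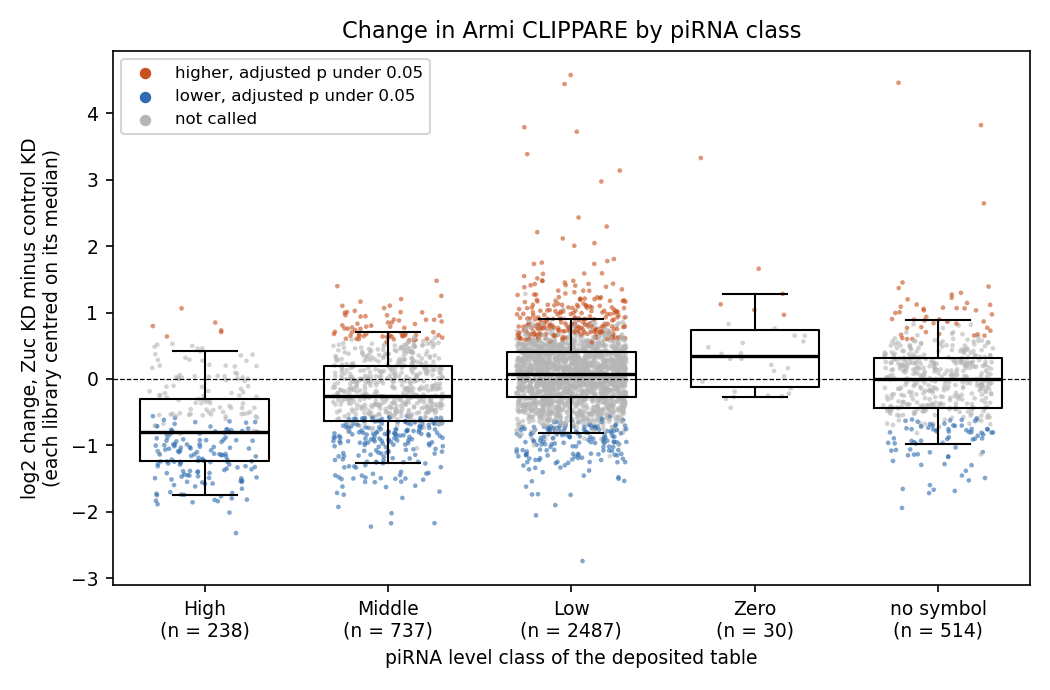
Log2 change in Armi CLIPPARE (vertical axis, Zuc KD minus control KD, centred) for each tested transcript, by piRNA class. Boxes span the middle 50% with the median as a line, whiskers run to the 5th and 95th percentiles, and orange and blue points passed the test as higher and lower. The box of the 238 High transcripts lies below 0 around a median of -0.80, and the Low box straddles 0.

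As a share of the RPM in the table, the High class held 27.1 and 27.3% in Zuc KD, against 36.3 and 41.1% in control KD. The means were 27.2 ± 0.0765% in Zuc KD and 38.7 ± 3.43% in control KD (SD, n = 2 each), a difference of -11.5 percentage points. The groups did not overlap, but the exact two-sided permutation test gave p = 0.333, the smallest p that 2 against 2 libraries allow. The Middle class held 28.0 and 28.0% in Zuc KD, against 25.3 and 24.7% in control KD, and the Low class averaged 32.4% in Zuc KD and 24.9% in control KD. As a share of all reads in the library the High class held 4.37 and 4.52% in Zuc KD, against 4.65 and 8.09% in control KD, so on that scale control KD replicate 1 was close to the Zuc KD libraries. The size of the High fall also differed with the control library. The High median was -0.60 against control KD replicate 1 alone and -0.94 against replicate 2 alone.

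High transcripts are also the most abundant in these libraries, and the change ran with abundance as well as with class. Over all classes the median change was 0.06 at 5 to 10 RPM and -1.04 for the 17 transcripts above 500 RPM. At mean levels of 20 to 200 RPM, 81 of 143 High transcripts fell and none rose, with a median of -0.78. In the same range 160 of 651 Middle transcripts fell and 65 rose, with a median of -0.19. Of 642 Low transcripts in that range 47 fell and 113 rose, with a median of 0.11. Abundance still differed between the classes within that range. Median levels were 114 RPM for High, 51.3 RPM for Middle and 29.3 RPM for Low transcripts, so class and abundance are not separated here.

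The change was graded along the amount of Piwi-bound small RNA that each transcript gives in untreated OSC, which was read in a separate library. The 35 transcripts at 0 RPM of Piwi small RNA had a median change of 0.38, with 7 higher and none lower. They lay near the limit for testing, with a median level of 6.65 RPM. Some, such as Hsp68 with a control KD mean of 4.84 RPM, passed it only through Zuc KD. Between 0 and 5 RPM the median was 0.15 over 1292 transcripts, and between 10 and 20 RPM it was -0.01 over 693. It was -0.44 between 50 and 100 RPM, where 85 of 244 transcripts fell, and -0.81 between 200 and 500 RPM, where 54 of 90 fell and 1 rose. Above 500 RPM 34 of 40 transcripts fell and none rose, with a median of -1.22. These medians are descriptions, and the abundance of the transcript moves with the bins.

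**Figure D2:**
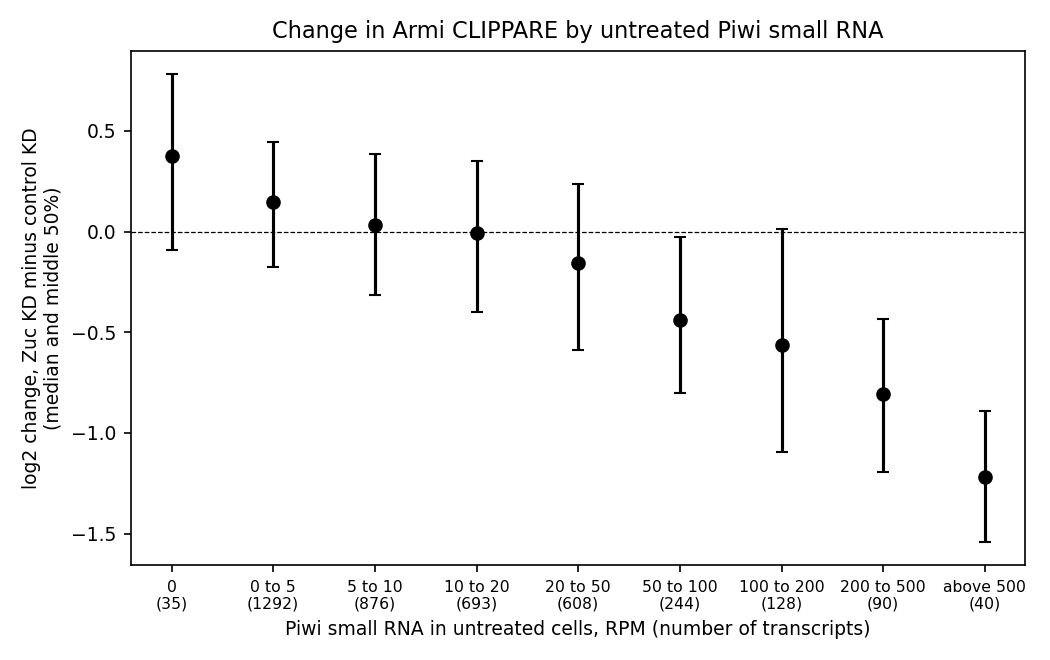
Median log2 change in Armi CLIPPARE (vertical axis, Zuc KD minus control KD, centred) by the RPM of Piwi small RNA on the same transcript in untreated cells (horizontal axis, with the number of transcripts). Bars span the middle 50% of transcripts. The median is 0.38 at 0 RPM, where transcripts lie near the limit for testing, and -1.22 above 500 RPM.

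Most of the transcripts with the highest RPM fell. The transcript of traffic jam (tj), a transcription factor of follicle cells whose mRNA is a known source of piRNAs, was the highest in every library, with 1649 and 1833 RPM in Zuc KD, against 1935 and 4143 RPM in control KD. The groups did not overlap, but control KD replicate 2 alone was far above the rest. The change was -1.04 (SE 0.29, limma adjusted p = 0.0208), and 0.00 after quantile normalization, which gives the highest transcript of every library the same value. For brat, an NHL-domain repressor of translation, the values were 623 and 610 RPM in Zuc KD, against 1166 and 2484 RPM in control KD. Its change was -1.80 (SE 0.26, adjusted p = 5.24e-04). The transcript of dm, the fly Myc gene, had 520 and 643 RPM in Zuc KD, against 808 and 1611 RPM in control KD, a change of -1.31. The transcript of l(2)gl, a cell polarity gene and tumour suppressor, had 448 and 480 RPM in Zuc KD, against 884 and 1310 RPM in control KD, a change of -1.55.

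Of the 12 transcripts with the highest mean RPM, 9 fell, Imp rose, and CG10289 and nmo did not pass. CG10289 had 1030 and 1131 RPM in Zuc KD, against 907 and 1350 RPM in control KD, overlapping in RPM but not after centring (change -0.37, adjusted p = 0.279). For nmo, a serine/threonine kinase, the values were 656 and 652 RPM in Zuc KD, against 566 and 1408 RPM in control KD, again overlapping in RPM only (adjusted p = 0.0577). Falls were also called for CycG (-0.77), Art4, an arginine methyltransferase (-0.80), CG11360 (-1.39), CG32791 (-1.73) and the transcript FBtr0309865 without a symbol (-1.67). In CycG and Art4 the RPM of control KD replicate 1 lay close to those of the Zuc KD libraries, and after quantile normalization their changes are 0.11 and 0.12. Art4 had 611 and 592 RPM in Zuc KD, against 613 and 1124 RPM in control KD.

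Beside brat, the 12 largest falls among transcripts of at least 20 RPM were in less abundant ones. CG17514 had 140 and 140 RPM in Zuc KD, against 479 and 649 RPM in control KD (change -2.32, SE 0.20, adjusted p = 1.53e-05). It was followed by CG6044 (-2.17), CG9416 (-2.02), CG32000 (-2.01) and the transcript FBtr0340653 without a symbol (-1.94). Tif-IA, which recruits RNA polymerase I to ribosomal RNA genes, had 166 and 156 RPM in Zuc KD, against 356 and 632 RPM in control KD, a change of -1.89. The transcript of unk, a zinc-finger RNA-binding protein, had 240 and 243 RPM in Zuc KD, against 599 and 790 RPM in control KD, a change of -1.84. Nipped-A, a large scaffold subunit of histone acetyltransferase complexes, fell by 1.83 on the log2 scale, and sl, a phospholipase C gamma, and path, an amino acid transporter, both by 1.82. The list took only transcripts whose centred groups did not overlap, as held for 64.0% of all transcripts tested. Their separation is therefore no added support. Of the 12 largest falls 9 were High, 2 were Middle and 1 had no symbol.

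**Figure D3:**
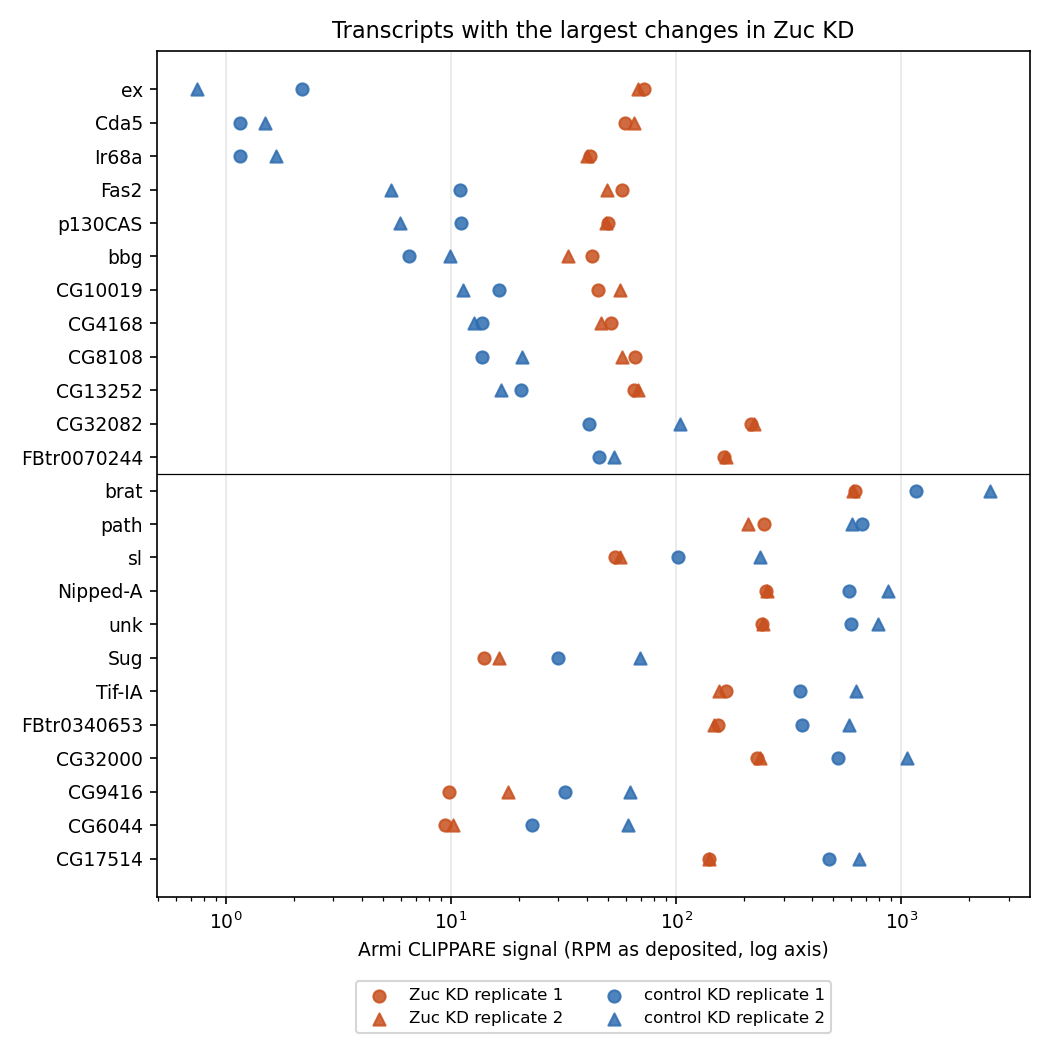
RPM in each library (horizontal log axis) for the 12 largest rises (above the line) and the 12 largest falls (below it) among called transcripts of at least 20 RPM whose groups did not overlap. Orange marks Zuc KD and blue control KD, with circles for replicate 1 and triangles for replicate 2; for ex the Zuc KD values are 71.9 and 67.6 RPM, against 2.17 and 0.744 RPM in control KD.

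The largest rises were in transcripts near the bottom of the scale in control KD, which reached the limit for testing only through Zuc KD. The transcript of expanded (ex), a FERM-domain protein that acts upstream of the Hippo kinases, had 71.9 and 67.6 RPM in Zuc KD, against 2.17 and 0.744 RPM in control KD. These were 419 and 386 reads in Zuc KD, against 17 and 4 reads in control KD. The change was 4.58 (SE 0.34, adjusted p = 4.52e-06). Cda5, a chitin deacetylase-like gene, had 59.3 and 65.3 RPM in Zuc KD, against 1.15 and 1.49 RPM in control KD, a change of 4.44. Ir68a, an ionotropic receptor gene, had 41.3 and 40.3 RPM in Zuc KD, against 1.15 and 1.67 RPM in control KD, a change of 3.79. All 3 are in the Low class, and in each the lowest Zuc KD value was far above the highest control KD value.

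In all, 11 transcripts had changes above 2.5 on the log2 scale and 1 had a change below -2.5. The 11 passed the limit of 5 RPM only through Zuc KD, so they had to differ, and they are listed as a description. They had between 10.7 and 71.9 RPM in Zuc KD and at most 2.23 RPM in either control KD library. Of them 8 have a symbol. Beside ex, Cda5 and Ir68a these are bab1, CG1317, CHKov1, neo and CG30076, and all but bab1 of these 5 were picked out after their values were seen. The transcript of bab1, a BTB-domain transcription factor of the ovary and limbs, had 28.1 and 28.4 RPM in Zuc KD, against 1.15 and 2.23 RPM in control KD, a change of 3.14. For neo the values were 12.7 and 10.7 RPM in Zuc KD and 0 in both control KD libraries, where 3 reads would be 0.384 and 0.558 RPM. Set against that limit of 3 reads per library, neo was at least 24.8-fold higher in Zuc KD. The 1 below -2.5 was dpr17, with 0 and 1.93 RPM in Zuc KD, against 3.32 and 18.04 RPM in control KD, and it rests mostly on control KD replicate 2.

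Smaller rises of at least 20 RPM included Fas2, an adhesion molecule of the immunoglobulin family, with 57.5 and 49.2 RPM in Zuc KD, against 11.0 and 5.39 RPM in control KD (change 2.29). The focal adhesion adaptor p130CAS had 49.6 and 48.7 RPM in Zuc KD, against 11.1 and 5.95 RPM in control KD (change 2.11). The PDZ-domain gene bbg had 42.4 and 32.9 RPM in Zuc KD, against 6.52 and 9.86 RPM in control KD (change 1.75). The remaining 6 of the 12 largest were CG10019, CG4168, CG8108, CG13252, CG32082 and the transcript FBtr0070244 without a symbol, with changes between 1.39 and 1.48. Of the 12, 9 were Low, 2 were Middle, 1 had no symbol and none was High.

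The 6 High transcripts that rose went against most of their class, and after quantile normalization 29 did. The transcription factors chinmo and zfh1 were among them: chinmo had 576 and 568 RPM in Zuc KD, against 167 and 281 RPM in control KD (change 1.06, SE 0.21, adjusted p = 0.00358). For zfh1 the values were 297 and 301 RPM in Zuc KD, against 106 and 162 RPM in control KD (change 0.85). The RNA-binding protein gene Imp had 961 and 1042 RPM in Zuc KD, against 353 and 591 RPM in control KD (change 0.80). SK, a calcium-activated potassium channel gene, had 322 and 282 RPM in Zuc KD, against 128 and 161 RPM in control KD (change 0.73). Xrp1, a transcription factor gene, had 461 and 391 RPM in Zuc KD, against 189 and 224 RPM in control KD (change 0.71). The last of the 6, CG12290, changed by 0.64. In each of the 6 both Zuc KD libraries lay above both control KD libraries. They were picked as called rises, and the centred groups did not overlap for 200 of the 238 High transcripts. Their separation is therefore no added support.

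Other classes had exceptions too. In the Middle class the largest rises beside CG10019 and CG32082 were br, a transcription factor of the ecdysone response (1.25), and fng, a glycosyltransferase that modifies Notch (1.20). In the Low class the largest falls of at least 20 RPM were Pkc53E, a protein kinase C (-1.62), CG9231 (-1.25), CG6812 (-1.20) and ced-6, an adaptor for the engulfment of dead cells (-1.17). For ced-6 the values were 27.4 and 25.4 RPM in Zuc KD, against 37.2 and 61.6 RPM in control KD.

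Of 28 listed piRNA pathway genes found in the files 17 were tested, of which Trf2 rose, fs(1)Yb and spn-E fell, and the median change was 0.01. Over all transcripts 23.7% were called, so the count says nothing particular about the pathway. Without centring 2 rose and none fell, and after quantile normalization 3 rose and 1 fell. The armi transcript had 212 and 210 RPM in Zuc KD, against 142 and 195 RPM in control KD (change 0.01, adjusted p = 0.984), so relative to the median transcript no difference was detected for the gene whose protein was precipitated. The piwi transcript had 81.1 and 90.7 RPM in Zuc KD, against 80.4 and 121 RPM in control KD, overlapping in RPM but not after centring (change -0.53, adjusted p = 0.0566). For fs(1)Yb the values were 69.6 and 71.1 RPM in Zuc KD, against 82.0 and 140 RPM in control KD (change -0.94, SE 0.20, adjusted p = 0.00469). Trf2, a TBP-related factor, had 228 and 250 RPM in Zuc KD, against 87.9 and 109 RPM in control KD (change 0.94). The helicase gene spn-E changed by -0.59.

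Among lists of other functions the heat shock and chaperone genes had the highest median. Of 19 tested 7 rose and none fell, with a median of 0.50, beside 9.46% higher calls and a median of -0.01 over all transcripts. Among the 7, Hsp67Ba, Cdc37, Hsp27 and Hsp68 had control KD means of 2.41, 4.17, 4.75 and 4.84 RPM. They passed the limit of 5 RPM only through Zuc KD, so the count of 7 is a description. With DESeq2 on recovered reads 3 rose. The small heat shock genes Hsp67Ba and Hsp26 had the largest changes of the list. Hsp67Ba had 11.8 and 11.0 RPM in Zuc KD, against 3.32 and 1.49 RPM in control KD (change 1.59). Hsp26 had 19.9 and 30.8 RPM in Zuc KD, against 6.65 and 8.93 RPM in control KD (change 1.23). The chaperones of highest RPM did not pass. Hsp83 had 436 and 488 RPM in Zuc KD, against 189 and 319 RPM in control KD (change 0.57, adjusted p = 0.0682), and Hsc70-4 and Hsc70-3 changed by 0.48 and 0.46. Of 20 proteasome subunit genes 2 rose (Rpn5 and Rpt3) and none fell, with a median of 0.40. The 2 rises are 10% of that list, near the 9.46% over all transcripts.

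Cytosolic ribosomal protein genes stayed close to the median transcript. Of 75 tested none rose and 1 fell, RpL41, beside 9.46% higher and 14.2% lower calls over all. The list median of -0.12 is 0.21 without centring. RpL41 had 54.5 and 74.3 RPM in Zuc KD, against 83.9 and 81.1 RPM in control KD. Of 72 mitochondrial ribosomal protein genes found only 2 were tested, of which mRpL21 fell and mRpS30 did not pass. Of 21 translation factor genes 2 rose, eIF-2beta (1.17) and NAT1 (0.58), and none fell, with a median of 0.10. The share of rises, 9.52%, was near that over all transcripts. The elongation factor gene Ef1alpha48D, the highest of that list, had 383 and 433 RPM in Zuc KD, against 204.5 and 311 RPM in control KD (change 0.35, adjusted p = 0.23).

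The counts in the next 4 lists stand beside 9.46% higher and 14.2% lower calls over all transcripts. Of 33 cell adhesion and matrix receptor genes 8 rose and 4 fell, with a median of 0.24, and without centring 7 rose and none fell. Beside Fas2, p130CAS and bbg the rises included stan, an atypical cadherin (1.17), Fas3 (1.12) and Pax, the fly paxillin (1.03), and the falls were Ilk, the integrin-linked kinase (-0.96), Ama (-0.88), the cadherin gene kug (-0.68) and Fas1 (-0.59). Ilk and Ama were named after their values were seen. Fas3 had a control KD mean of 3.74 RPM, so it passed the limit of 5 RPM only through Zuc KD. Of 29 cytoskeleton genes 6 rose and 1 fell, with a median of 0.37; 12 rose after quantile normalization and 2 with DESeq2. The rises were small, as in betaTub56D (0.76) and Act5C (0.60), and the fall was dia, a formin of the High class, with 95.2 and 103 RPM in Zuc KD, against 158 and 275 RPM in control KD (change -1.40). Of 23 polarity and junction genes 2 rose and 3 fell, with a median of 0.17. These shares, 8.70% higher and 13.0% lower, were near those over all transcripts. Without centring 3 rose and none fell, and after quantile normalization 4 rose and 3 fell. Gli, a protein of tricellular junctions, rose by 2.04, while l(2)gl, par-6 (-1.07) and p120ctn (-0.96) fell. The control KD mean of Gli was 4.93 RPM, so it too passed the limit only through Zuc KD. Of 23 Hippo pathway genes 4 rose and 1 fell, with a median of 0.16, and 6 rose and 1 fell after quantile normalization. Beside ex these were wgn (1.12), the transcription factor sd (0.70) and mask (0.64), and the fall was jub (-0.78).

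Of 33 genes of RNA repressors and decay factors 7 rose and 7 fell, with a median of 0.13, beside 9.46% higher and 14.2% lower calls over all. The split depends on the scale: 11 rose and 4 fell after quantile normalization, 5 rose and 2 fell without centring, and 3 rose and 6 fell with DESeq2. Of the 8 of these in the High class 6 fell and 1 rose. Beside brat and unk the falls included Tis11, which binds AU-rich elements, with 165 and 211 RPM in Zuc KD, against 226 and 600 RPM in control KD (change -1.31). The decapping activator gene Patr-1 had 241 and 303 RPM in Zuc KD, against 361 and 543 RPM in control KD (change -1.05). For tral, a protein of cytoplasmic RNA granules, the control KD values were far apart, with 204 and 226 RPM in Zuc KD, against 197 and 579 RPM in control KD (change -0.98, adjusted p = 0.026). Rises included Imp and how, an RNA-binding protein of the STAR family (0.89).

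Of 23 ecdysone response genes 6 rose and 2 fell, beside 9.46% higher and 14.2% lower calls over all. Their median was 0.38, and without centring 8 rose and none fell. Eip93F, a transcription factor gene induced by ecdysone, had 30.0 and 38.4 RPM in Zuc KD, against 3.84 and 4.46 RPM in control KD (change 2.43, SE 0.23). It passed the limit of 5 RPM only through Zuc KD, so its rise is listed as a description. The genes br, chinmo and Eip75B (1.09) rose too. Eip63E, a cyclin-dependent kinase gene of the High class, had 354 and 411 RPM in Zuc KD, against 568 and 1017 RPM in control KD (change -1.33), and the nuclear receptor gene Hr96 fell by 1.15 on the log2 scale. Of 24 growth and ribosome biogenesis genes 3 rose and 2 fell, with a median of 0.14, and with DESeq2 1 rose and 2 fell. These 12.5% higher and 8.33% lower calls were not far from the shares over all transcripts. The rises were the insulin receptor gene InR (1.00), the kinase gene Akt1 (0.62) and Mnt, a Myc antagonist (0.79), and the falls were dm and Tif-IA.

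**Figure D4:**
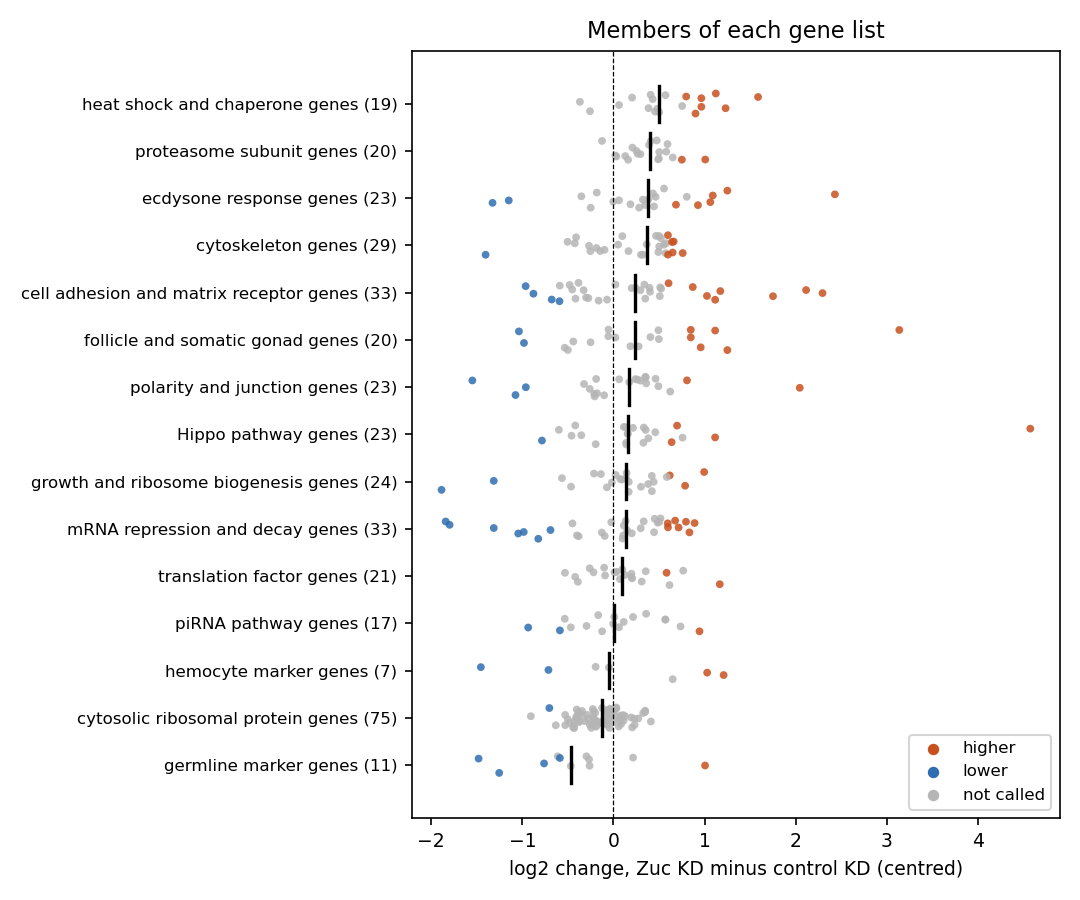
Log2 change in Armi CLIPPARE (horizontal axis, Zuc KD minus control KD, centred) of the tested members of each gene list with at least 5 of them, with their number in brackets. The black line is the list median and orange and blue points are higher and lower calls; heat shock and chaperone genes have a median of 0.50 and germline marker genes one of -0.47.

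Of 20 follicle and somatic gonad genes 6 rose and 2 fell, beside 9.46% higher and 14.2% lower calls over all. Their median was 0.23, and after quantile normalization 10 rose and 1 fell. The rises included bab1, br, zfh1, Egfr (0.96) and Fas3, and the falls were tj and pnt (-0.98). With control KD means of 1.69 and 3.74 RPM, bab1 and Fas3 passed the limit of 5 RPM only through Zuc KD. LanA, a laminin gene, had 363 and 343 RPM in Zuc KD, against 247 and 306 RPM in control KD (change 0.02, adjusted p = 0.956). Of 11 germline marker genes tested 1 rose and 4 fell, with a median of -0.47, beside 14.2% lower calls over all. Without centring 1 rose and 1 fell, with a median of -0.13, and after quantile normalization 1 rose and 2 fell. Those that fell, tud (-0.76), BicD (-1.25), spn-E and grk (-1.48), include genes with roles outside the germline, and the rise was Sxl, the sex determination gene (1.01). Of 7 hemocyte marker genes tested 2 rose and 2 fell, beside 9.46% higher and 14.2% lower calls over all. Their median was -0.05, which is 0.28 without centring and 0.05 after quantile normalization. The rises were ush (1.21) and Pxn (1.03). With a control KD mean of 4.27 RPM, Pxn passed the limit of 5 RPM only through Zuc KD. Of the falls, the engulfment receptor gene drpr had 411 and 385 RPM in Zuc KD, against 416 and 643 RPM in control KD (change -0.71). The other, crq, changed by -1.45.

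On chromosome 4, which is rich in heterochromatin, all calls were falls. Of 40 transcripts tested 15 fell (37.5%) and none rose, with a median of -0.54, beside 14.2% lower and 9.46% higher calls over all. The class of the transcript moved with this: 5 of 7 High and 10 of 20 Middle transcripts fell, and of 13 Low transcripts none was called, with a median of 0.05. Of 20 transcripts placed on heterochromatic or unmapped scaffolds 6 fell and none rose. On the X and the arms of chromosomes 2 and 3 the medians lay between -0.06 and 0.06.

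The same transcripts were then set beside the Yb KD, read by Armi iCLIP in libraries that share no control with CLIPPARE. There 1 pooled column per condition was deposited, so its ratios have no replicate check. The median log2 ratio of Yb KD over control KD was 1.55 over 3492 transcripts with a symbol. It was 2.47 for the 334 that rose in Zuc KD, -0.43 for the 498 that fell and 1.62 for the 2660 not called. Of the 334 risers 312 lay above the median of all, and of the 498 fallers 493 lay below it. The 5 fallers above it were RpL41, Tret1-1, bond, CG8213 and 1 more, which were picked out after their values were seen, and all 5 are in the Low class. Spearman's rho between the Zuc KD change and the Yb KD ratio was 0.74 across 3492 transcripts, 0.80 over High, 0.81 over Middle and 0.65 over Low transcripts. Transcripts are not independent replicates, and abundance and class move with both measures.

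**Figure D5:**
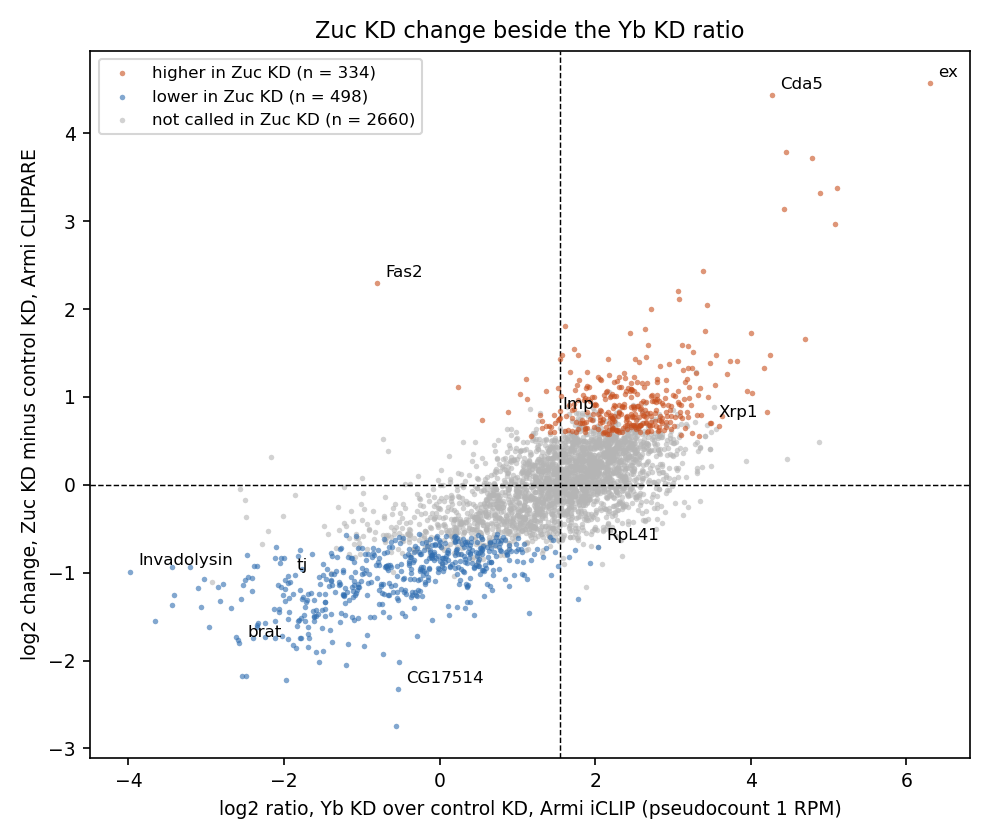
Log2 change in Armi CLIPPARE (vertical axis, Zuc KD minus control KD, centred) beside the log2 ratio of Yb KD over control KD in Armi iCLIP (horizontal axis), 1 point per transcript with a symbol. The vertical dashed line is the median ratio of 1.55; of the orange points (higher in Zuc KD) 312 of 334 lie to its right and of the blue points (lower) 493 of 498 to its left.

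Within the High class all 138 transcripts that fell in Zuc KD lay below the median Yb KD ratio, and 121 of them below 0. Of the 94 High transcripts not called, 76 lay below the median. The largest risers were high in both experiments. In iCLIP ex had 260 RPM in Yb KD and 2.30 RPM in control KD, Cda5 had 84.8 RPM in Yb KD and 3.45 RPM in control KD, and Ir68a had 42.1 RPM in Yb KD and 0.959 RPM in control KD. Fas2 was the exception, with 7.87 RPM in Yb KD and 14.5 RPM in control KD. Among the fallers brat had 520 RPM in Yb KD and 3109 RPM in control KD, and tj had 1170 RPM in Yb KD and 4510 RPM in control KD. Invadolysin, a metalloprotease gene, had 24.3 RPM in Yb KD and 397 RPM in control KD in iCLIP. In CLIPPARE it fell by 0.99 on the log2 scale, with 172 and 176 RPM in Zuc KD, against 249 and 302 RPM in control KD. RpL41, a faller above the median Yb KD ratio, had 1879 RPM in Yb KD and 459 RPM in control KD. Its log2 ratio of 2.03 was only 0.49 above the median of 1.55, and 170 of the 498 fallers had a ratio above 0.

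Piwi small RNA after Yb KD, with 1 library per condition, and iCLIP of Myc-tagged Armi carrying the substitution D862A or R949A gave the same order of medians. The median log2 ratio of Piwi small RNA, Yb KD over control KD, was 2.61 for transcripts that rose in Zuc KD, 0.30 for those that fell and 2.08 for those not called. For D862A over wild-type Myc-Armi the medians were 1.59, 0.07 and 1.51 in the same order, and for R949A over wild type 1.64, 0.16 and 1.505. Spearman's rho with the Zuc KD change was 0.59 for Piwi small RNA, 0.32 for D862A and 0.33 for R949A (3492 transcripts each), and in the High class it was 0.61 for D862A and 0.58 for R949A (238 transcripts each).

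The called transcripts can also be described by features the test did not use. The median span of the gene was 8050.5 bp for transcripts that rose, 4156.5 bp for those that fell and 3855 bp for those not called. In untreated cells the median of Piwi small RNA was 7.82 RPM for the risers, 36.9 RPM for the fallers and 6.70 RPM for those not called. Armi iCLIP of untreated cells had medians of 10.7 RPM for the risers, 49.4 RPM for the fallers and 12.1 RPM for those not called. Abundance moves with these features: median CLIPPARE levels were 21.9 RPM for risers, 37.2 RPM for fallers and 14.1 RPM for those not called. At a mean of at least 20 RPM the order differed. There Piwi small RNA had a median of 14.5 RPM for risers and 20.7 RPM for those not called. The median span there was 4984 bp for fallers and 6141.5 bp for those not called.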

How the data were processed

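The authors deposited 1 RPM value per FlyBase transcript and library. Per the submitters' processing notes, cutadapt and STAR were used with the build dm6; versions, the counting step, strand, reads with several hits and duplicate removal are not given in the sources used here, so overlapping or near-identical genes cannot be told apart. Per the labels' protocols, cells were crosslinked, Armi was precipitated, and the 5′ adapter was ligated before RNase T1. All values (100%, tolerance 0.1 read) were whole multiples of 1 step, so whole reads were recovered. Of 13929 transcripts (107 repeated lines dropped), 12013 took a symbol and piRNA class by joining the deposited tables, and 1916 have none. Of the symbols 10221 are current and 1696 are single synonyms in RefSeq; 96 were not settled and kept as deposited. Loci in the tables follow another build and are not printed, and no sequences were used here.

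Groups follow the sample titles. For transcripts averaging 5 RPM or more, log2(RPM + 1) was centred on each library's median and fitted with limma 3.58.1 (eBayes with trend, R 4.3.3), two-sided, with Benjamini-Hochberg adjustment at 0.05. The added count tests, edgeR 4.0.16 (quasi-likelihood) and DESeq2 1.42.0, ran on recovered reads and called 906 and 669 transcripts. Shares were compared by exact permutation (scipy 1.17.1). Intervals and limits of 3 reads cover counting error only. With 4006 simulated transcripts, limma found 58% of the 2-fold and 98% of the 4-fold changes and made 10 false calls. Each fold was given to 100 transcripts, split evenly up and down, with no shift of a class or of the scale. The simulation therefore does not measure errors that come from the choice of scale. The labels do not say that a replicate number marks a shared culture, day or batch, so numbers were not used as pairs. Across transcripts the deviations of same-numbered libraries had r = 0.0485, which does not settle whether they were paired.

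Alternatives were no centring, pseudocounts of 0.1 and 5, no filter or 20 RPM, no trend, a replicate block, quantile normalization, both count tests and leaving out each library. Members and lists were chosen with earlier results of these data known; 1 gene was dropped from the proteasome list after its values were seen, because it is no subunit. Named were the 12 largest changes each way (called, groups not overlapping, at least 20 RPM), the 12 highest in RPM, 4 of opposite direction per class, pathway genes, up to 4 of highest RPM and 6 called per list, and 8 with and 4 against the Yb KD ratio.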

Additional observations from a re-analysis of the deposited data

How the results depend on the processing

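Without centring, 582 transcripts were called, 471 higher and 111 lower, 40 High transcripts fell, and the Middle class median was 0.077. The share of calls that were higher was 80.9% without centring and 51.0% after quantile normalization, against 39.9% as reported. With no filter 586 of 9856 transcripts were called, 183 higher, and with a filter of 20 RPM 346 of 1750 were lower. DESeq2 called 233 higher. After quantile normalization the High median was -0.38, and changes turned or vanished for tj (0.00), CG10289 (0.70), Art4 (0.12), CycG (0.11) and drpr (0.050); the cause was not tested beyond the tie at the top rank that holds tj. The High share of all reads changed by -1.92 percentage points. Leaving out 1 library gave 162 to 1495 calls, 45 to 647 higher and 117 to 848 lower, and 30 to 187 High falls, with the fewest without a Zuc KD library and the most without control KD replicate 1. With the replicate number as a block, 983 transcripts were called, 386 higher and 597 lower; the numbers are not known to pair the libraries. Under the other settings (both other pseudocounts, no trend, edgeR) these counts stayed within 1.5 times the reported ones. Depth limits the low end: below a mean of 5 RPM no transcript was tested.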
